A study of Mus musculus with 33 samples.

Results

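App, Aplp1 and Aplp2, the 3 genes of the amyloid precursor protein family, and Thy1, the gene whose promoter drives the transgenes of the mouse line studied, were followed in the CA1 region of the hippocampus. They were chosen by name, not by their values, and are 4 of the 38355 genes counted in aged mice and 4 of the 40678 loci measured in young mice.

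App encodes the type I membrane protein from which β-secretase and γ-secretase release the amyloid-β peptide, the main component of plaques in Alzheimer's disease. Aplp1 and Aplp2 encode its paralogs, which share the large extracellular domains and the cytoplasmic tail of App but lack the amyloid-β sequence. Thy1 encodes a small glycoprotein held on the surface of projection neurons, and of T cells in the mouse, by a glycosylphosphatidylinositol (GPI) anchor, and its regulatory sequence is widely used to express transgenes in neurons after birth.

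The aged mice were 8 to 10 months old. The APP mice carry APP/PS1-21, in which Thy1 promoters drive a human APP with the Swedish mutation and a further human transgene, in a C57B/6 background. Of these, 6 received JQ1 intraperitoneally at 50 mg per kg for 10 days and 6 received vehicle with 10% DMSO for 10 days. JQ1 occupies the bromodomains of BET proteins, which bind acetylated histones. WT mice of the same age received the same vehicle, and 4 of the 5 labelled libraries had values, replicate 2 not being analysed here. Their titles say WT but their strain label is that of the APP mice, and the titles were followed. A separate experiment used 3-month-old C57B/6JRj WT mice, of which 8 received JQ1 at 50 mg per kg and 8 received vehicle with 10% DMSO, both for 13 days. Females of the APP line and males of the young strain are named for the study's experiments, so age, sex and strain cannot be told apart between the experiments. CA1 was dissected as bulk tissue, in which fewer cells of a type and less RNA per cell cannot be told apart.

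Each aged library held 14605459 to 25339482 reads on genes. Levels in aged mice are given as CPM, in which the count of a gene is divided by the TMM-adjusted total of its library. Levels in young mice are FPKM, which also divide by length and whose depth is unknown here. All 7 markers of neurons and all 5 of CA1 pyramidal cells were above 0 in every aged library. Between 6882 and 69407 reads stood behind each value of the 4 genes in the aged libraries, so counting error was small beside the differences between mice.

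On mm10, App (ENSMUSG00000022892) lies on the minus strand of chromosome 16 at chr16:84949685-85173766, Aplp1 (ENSMUSG00000006651) on the minus strand at chr7:30434982-30445535 and Aplp2 (ENSMUSG00000031996) on the minus strand at chr9:31149557-31211815. Thy1 (ENSMUSG00000032011) lies on the plus strand at chr9:44043384-44048579. Because the family shares ancestry, their principal transcripts in GENCODE were searched for windows of 50 bases that could be mistaken for one another. No window of App, Aplp1 or Aplp2 lay within 2 mismatches, the most that the alignment allowed, of another member. The closest windows differed by 8 bases between App and Aplp2 and by 11 bases for Aplp1. Within App, 66 of 3127 windows (2.11%) were also found in the antisense gene Gm49227, and without a stated strand setting reads from these bases cannot be told apart. The most alike stretches of 60 coding bases are printed 5′ to 3′ on the strand of the gene, with the bases at which a pair differs in capitals, to show how far the family can be separated.

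App, exon 9, chr16:85024901-85024960: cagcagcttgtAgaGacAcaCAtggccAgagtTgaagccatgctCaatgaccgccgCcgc
Aplp2, exon 10, chr9:31161807-31161866: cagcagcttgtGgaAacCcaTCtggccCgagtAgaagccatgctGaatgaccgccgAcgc

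These stretches of App and Aplp2 shared 51 of 60 bases. The closest stretches of App and Aplp1 shared 47 of 60.

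App, exon 5, chr16:85079942-85080001: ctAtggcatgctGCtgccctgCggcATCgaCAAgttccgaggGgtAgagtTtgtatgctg
Aplp1, exon 5, chr7:30442522-30442581: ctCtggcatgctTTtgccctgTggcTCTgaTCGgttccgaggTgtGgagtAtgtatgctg

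Sequence of the human transgenes was not analysed here, and reads of the transgenes and of the mouse genes cannot be told apart in the counts.

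Before the groups were compared, Thy1 and App were read in every library as a check of the labels. One library stood apart from the rest of its group. The library labelled aged APP JQ1 replicate 4 had 819.8 CPM of Thy1, whereas the other 5 libraries of JQ1-treated APP mice lay between 1618 and 2070 CPM. This value, and its 1781 CPM of App, were below those of all 4 WT libraries. A wrong label and a JQ1-treated APP mouse with WT-like levels cannot be told apart here.

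The same library was also placed, by genes that are not members, on a scale set by the vehicle groups. For 677 genes called between the vehicle groups in a fit without any JQ1 library, with App and Thy1 left out, each library was given a position on the log2 scale, from 0 at the mean of WT mice to 1 at the mean of vehicle-treated APP mice. Its median position was -0.06, and 91.1% of the genes were nearer to WT. The other 5 JQ1 libraries had medians between 0.64 and 1.18. Of the glial markers, Trem2 and Gfap are named here after their values were seen. Trem2, a microglial receptor, was at 14.7 CPM, against 15.4 to 18.9 in WT mice and 83.8 to 147.0 in the other JQ1-treated APP mice. Gfap, the intermediate filament of reactive astrocytes, was at 322.1 CPM, against 248.8 to 320.8 in WT mice and 1610 to 4076 in the other JQ1-treated APP mice. Other astrocyte markers stood elsewhere, of which Aldh1l1 and Slc1a2 are also named after their values were seen. Aldh1l1 was at 70.8 CPM, against 42.5 to 47.9 in WT mice and 50.6 to 87.3 in the other JQ1-treated APP mice, and Slc1a2 at 2671 CPM, against 2166 to 2457 and 2607 to 3757. As whole lists, the 8 microglial markers summed to 324.8 CPM in this library, inside the WT range of 300.4 to 326.0, and the 6 astrocyte markers to 4132 CPM, above the WT range of 3405 to 3759 and below the 5497 to 8978 of the other JQ1 libraries. The library was kept in its labelled group in the main fits and was never moved to another group, and the fold changes of the members after JQ1 are also given without it. As it was singled out by its own Thy1 and App, tests of both genes without it depend on that choice.

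**Figure D1:**
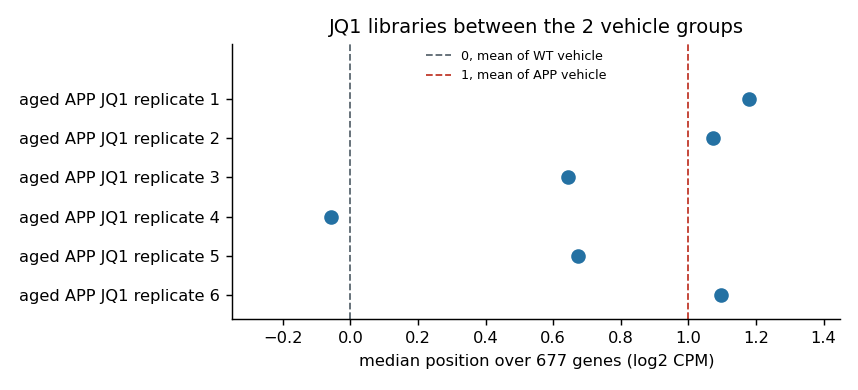
Each point is the median position of 1 library labelled aged APP JQ1 (y axis) over 677 genes, on a scale where 0 is the mean of vehicle-treated WT and 1 the mean of vehicle-treated APP mice in log2 CPM (x axis). Replicate 4 lies at -0.06 and the other 5 libraries between 0.64 and 1.18.

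The first comparison, between both groups given vehicle, asks how APP mice differ from WT mice. Thy1 was 2.14-fold higher in APP mice, and App was 1.28-fold higher with an adjusted p just above the threshold. Aplp1 and Aplp2 differed by less than the spread between mice.

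Thy1 was measured at 840.6, 968.1, 951.1 and 1070 CPM in the 4 WT mice, and its lowest, median and highest values in the 6 vehicle-treated APP mice were 1890, 1913 and 2342 CPM. All APP mice were above all WT mice, and 4 of the 6 APP values lay within 1890 and 1915 CPM. The log2 fold change was 1.10 (95% confidence interval 0.71 to 1.48, adjusted p = 0.00828 from edgeR). Of the 4 genes, 1 passed the threshold, Thy1, beside 2.57% of the 16962 genes tested, and 2.49% that passed it with a higher level in APP mice. The exact permutation test gave p = 0.00476, which is the smallest that 6 mice against 4 allow, and in 4.94% of all genes every APP mouse was likewise above every WT mouse.

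App itself had 1973, 1869, 1853 and 1992 CPM in WT mice and 2253, 2434 and 2716 CPM as lowest, median and highest in vehicle-treated APP mice. Here too the groups did not overlap, although the gap between them was narrower than for Thy1. The log2 fold change was 0.36 (95% confidence interval 0.16 to 0.56, adjusted p = 0.0519 from edgeR), and the exact permutation test gave p = 0.00476. The library labelled aged APP JQ1 replicate 4 is in neither of these groups but shares the fit, its normalization and its filter. Without it, the adjusted p of App was 0.0242 in edgeR with a log2 fold change of 0.35, and 3.55% of the 16948 genes then tested were called. In a fit of these groups alone, the adjusted p of App was 0.0205 in edgeR. Of 16 omissions of 1 aged library, only that of the library labelled aged APP JQ1 replicate 4 called App. The adjusted p reached 0.184 from edgeR among the omissions. That library had been singled out by its own App and Thy1, so the fit without it depends on that choice.

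Neither paralog was called. Aplp1 had 1114, 1412, 1498 and 1605 CPM in WT mice and 1269, 1351 and 1523 CPM as lowest, median and highest in vehicle-treated APP mice. Its log2 fold change was -0.03 (95% confidence interval -0.24 to 0.19, adjusted p = 0.937 from edgeR), so a rise of the size of the estimate for Thy1 lay outside the interval. Aplp2 had 539.1, 459.5, 470.2 and 466.8 CPM in WT mice and 404.8, 458.4 and 489.3 CPM as lowest, median and highest in vehicle-treated APP mice. WT replicate 1 stood above the other WT mice, and the groups overlapped. The log2 fold change of Aplp2 was -0.10 (95% confidence interval -0.26 to 0.06, adjusted p = 0.584 from edgeR).

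That same WT replicate 1 had the lowest Aplp1 of all 16 aged libraries and a summed level of 3156 CPM over the 4 choroid plexus markers (Ttr, Kcne2, Folr1 and Kl), of which Ttr alone gave 3065. The lowest WT library had 34.9 CPM over the 4 markers, and the 6 vehicle-treated APP mice had 22.5 to 98.9 CPM. Kcne2 and Folr1 were at 0 in at least 1 vehicle-treated APP library and above 0 in every WT library. Their part in the values of Aplp1 and Aplp2 was not tested. Leaving this library out gave -0.13 for Aplp1 and -0.06 for Aplp2 on the log2 scale, with neither called.

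Cell type markers moved with genotype as well. The 8 microglial markers summed to 591.7 to 994.9 CPM in vehicle-treated APP mice and to 300.4 to 326.0 CPM in WT mice, and the 6 astrocyte markers to 5325 to 8382 CPM against 3405 to 3759 CPM. The 7 neuronal markers ran from 9961 to 11406 CPM in vehicle-treated APP mice and from 11658 to 12648 CPM in WT mice. Read singly, each of the 7 neuronal markers overlapped between these groups. Rbfox3 and Slc17a7, named after their values were seen, had 216.5 to 272.3 and 1163 to 1683 CPM in vehicle-treated APP mice. In WT mice they had 195.5 to 255.8 and 1226 to 1332 CPM. Snap25, Syt1, Camk2a and Map2 went the other way, with both ends of their range lower in vehicle-treated APP mice. Snap25 had 1775 to 2405 CPM there and 2320 to 2936 CPM in WT mice. The range of Tubb3 was wider at both ends in vehicle-treated APP mice. The 5 markers of CA1 pyramidal cells summed to 874.0 to 1083 CPM in vehicle-treated APP mice and to 775.2 to 1149 CPM in WT mice, with overlap. Their part in the differences of Thy1 and App was not tested. T cells, which carry Thy1 in the mouse, were at or near 0: the 4 markers Cd3d, Cd3e, Cd3g and Cd2 together had at most 1.1 CPM in an aged library, and each of them was at 0 in at least 1 library of each group.

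**Figure D2:**
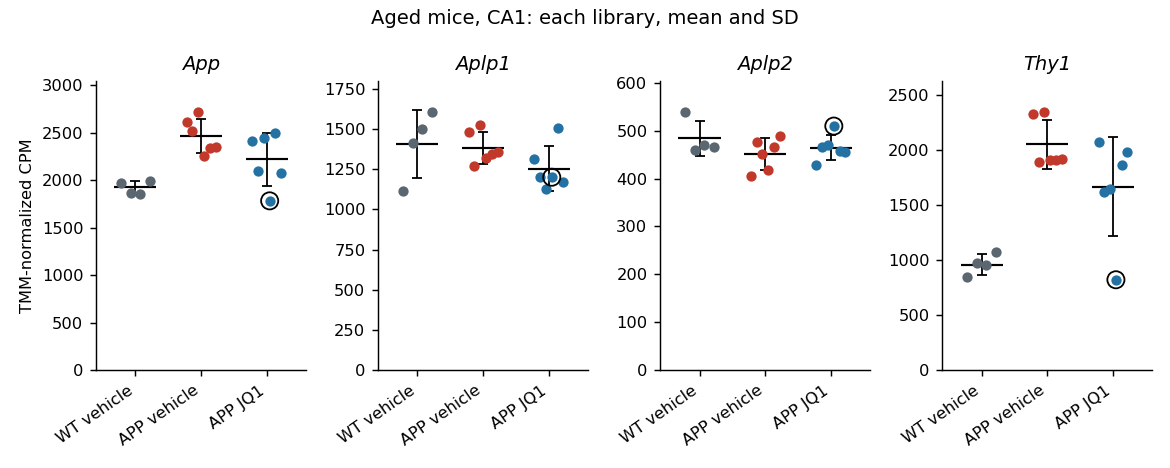
TMM-normalized CPM (y axes, from 0) of the 4 genes in each aged library, with 4 WT vehicle, 6 APP vehicle and 6 APP JQ1 libraries. Lines and bars are the mean and SD, and the ring marks the library labelled APP JQ1 replicate 4, which lies below all WT libraries for App and Thy1.

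JQ1-treated APP mice were next set against the same WT mice, so this comparison shares its WT libraries with the previous one. Thy1 was higher by a log2 fold change of 0.80 (95% confidence interval 0.42 to 1.18, adjusted p = 0.0272 from edgeR), and no other of the 4 genes passed the threshold, beside 2.06% of all genes. App was at 0.21 (0.01 to 0.40, adjusted p = 0.331 from edgeR). Aplp1 was at -0.17 (adjusted p = 0.513 from edgeR) and Aplp2 at -0.06 (adjusted p = 0.813 from edgeR). With the library labelled aged APP JQ1 replicate 4 in the group, the JQ1-treated APP mice overlapped the WT mice in all 4 genes. The call of Thy1 was lost with only the groups compared in the fit (adjusted p = 0.0839 from edgeR) and when JQ1 replicate 1, 2 or 6 or any 1 of the WT libraries was left out.

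Without this library, all 5 remaining JQ1-treated APP mice were above all WT mice in Thy1 and App. It had been singled out because both genes were low in it, so this separation and the p-values below depend on that choice. The remaining libraries had 1618, 1864 and 2070 CPM of Thy1 as lowest, median and highest. The log2 fold change of Thy1 became 0.93 (0.71 to 1.16, adjusted p = 4.51e-05 from edgeR). App was at 2070, 2416 and 2496 CPM, and its log2 fold change of 0.25 (0.07 to 0.44, adjusted p = 0.133 from edgeR) missed the threshold. The exact permutation test gave p = 0.0238 for App and p = 0.00794 for Thy1, the latter being the smallest that 5 mice against 4 allow. In this reduced set 3.84% of all genes were called and 5.89% had every JQ1-treated APP mouse above every WT mouse. Aplp1 and Aplp2 stayed at -0.16 and -0.09.

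JQ1 was then compared with vehicle within APP mice, which asks whether the levels of these genes differed after the drug. Point estimates were below 0 for Thy1, App and Aplp1 and near 0 for Aplp2, but none of the 4 genes passed the threshold, beside 1.08% of all genes (0.431% without the library labelled aged APP JQ1 replicate 4). At an unadjusted p under 0.05, edgeR likewise gave 0 of the 4, beside 17.6% of all genes, and DESeq2 called 0 of the 4. The estimate for Thy1 was nearer to 0 without that library.

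Thy1 had 819.8, 1754 and 2070 CPM as lowest, median and highest in JQ1-treated APP mice, and 1890, 1913 and 2342 CPM in vehicle-treated APP mice. The groups overlapped, with 4 of the 6 JQ1 values under the lowest vehicle value. The log2 fold change was -0.30 (95% confidence interval -0.63 to 0.04, adjusted p = 0.344 from edgeR). Without the library labelled aged APP JQ1 replicate 4 it was -0.15 (-0.35 to 0.05, adjusted p = 0.504 from edgeR), a fold of 0.90 with an interval from 0.78 to 1.03.

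App had 1781, 2253 and 2496 CPM as lowest, median and highest after JQ1. Its log2 fold change was -0.15 (-0.33 to 0.02, adjusted p = 0.361 from edgeR), and -0.09 (-0.26 to 0.07, adjusted p = 0.652 from edgeR) without that library. The exact permutation test of App gave p = 0.0952 with all libraries and p = 0.199 without it. Without it, the interval for the fold of App ran from 0.84 to 1.05, and with all libraries it reached down to 0.80, so the data do not show that JQ1 leaves App unchanged.

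Aplp1 had 1128, 1201 and 1507 CPM as lowest, median and highest after JQ1, and its log2 fold change was -0.14 (-0.34 to 0.05, adjusted p = 0.449 from edgeR), or -0.12 (adjusted p = 0.622 from edgeR) without that library. Among the 6 JQ1 values, 4 were below the lowest vehicle value of 1269 CPM. Aplp2 had 428.3, 462.1 and 509.7 CPM, and its log2 fold change was 0.04 (-0.10 to 0.19, adjusted p = 0.795 from edgeR), or 0.02 (adjusted p = 0.940 from edgeR) without that library. Aplp1 is the member with the highest GC content, 59.4% in its longest transcript against 46.1% in App. When base composition and gene length were corrected for, the estimate for Aplp1 was 0.10, with no call, so the direction of Aplp1 under JQ1 depended on this choice. That for App was -0.29 (standard error 0.10, adjusted p = 0.368 from edgeR), against -0.15 in the main fit. The size of the estimate for App thus depended on this choice too. The share of uniquely aligned reads outside exons ran from 16.9% to 26.9% in JQ1-treated and from 15.4% to 24.5% in vehicle-treated APP mice, and its part in these estimates was not tested.

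**Figure D3:**
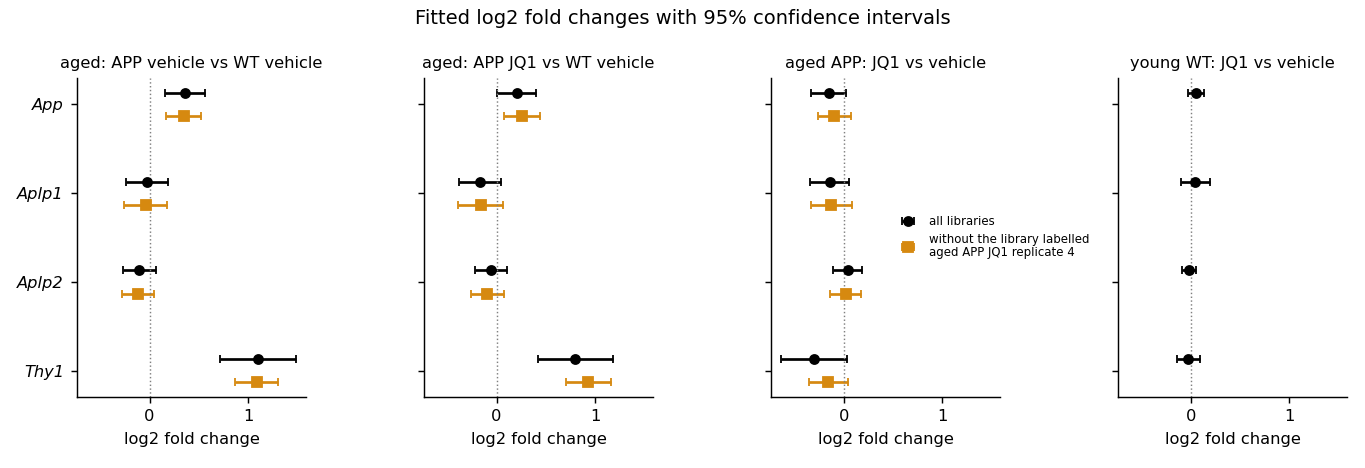
Log2 fold changes (x axes) of the 4 genes (y axis) in 4 comparisons with 95% confidence intervals, from edgeR in aged and limma in young mice, with all libraries (circles) and without the library labelled aged APP JQ1 replicate 4 (squares). Thy1 stands at 1.10 between vehicle-treated APP and WT mice, and all intervals for JQ1 against vehicle include 0.

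In young WT mice, which carry no transgene, the 4 genes differed between JQ1 and vehicle by less than the spread between mice. In limma 0 of the 4 passed the threshold, beside 0.00543% of the 18420 loci tested, and 0 of the 4 had an unadjusted p under 0.05, beside 4.65% of loci. App had 422.9, 454.6 and 490.4 FPKM as lowest, median and highest in JQ1-treated mice and 414.9, 429.7 and 477.0 FPKM in vehicle-treated mice. Its log2 fold change was 0.06 (95% confidence interval -0.03 to 0.14, adjusted p = 0.981 from limma). The exact permutation test gave p = 0.134 for App.

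Thy1 had 310.7, 358.8 and 427.6 FPKM as lowest, median and highest in JQ1-treated and 346.3, 367.7 and 390.7 FPKM in vehicle-treated young mice. Its log2 fold change was -0.02 (-0.14 to 0.09, adjusted p = 0.989 from limma). The SD was 37.0 FPKM after JQ1 and 15.4 FPKM after vehicle, a difference in spread that was not tested. The locus behind the FPKM of Thy1 spans chr9:44043123-44065743, wider than the gene in GENCODE.

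Aplp1 had 306.4, 385.8 and 441.8 FPKM as lowest, median and highest after JQ1 and 319.2, 377.8 and 416.9 FPKM after vehicle, with a log2 fold change of 0.05 (-0.10 to 0.19, adjusted p = 0.981 from limma). Aplp2 had 128.0, 131.9 and 143.2 FPKM after JQ1 and 130.5, 134.9 and 142.0 FPKM after vehicle, with a log2 fold change of -0.02 (-0.09 to 0.05, adjusted p = 0.987 from limma). For Aplp2 the interval corresponds to folds from 0.94 to 1.04, the narrowest of the 4 genes.

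**Figure D4:**
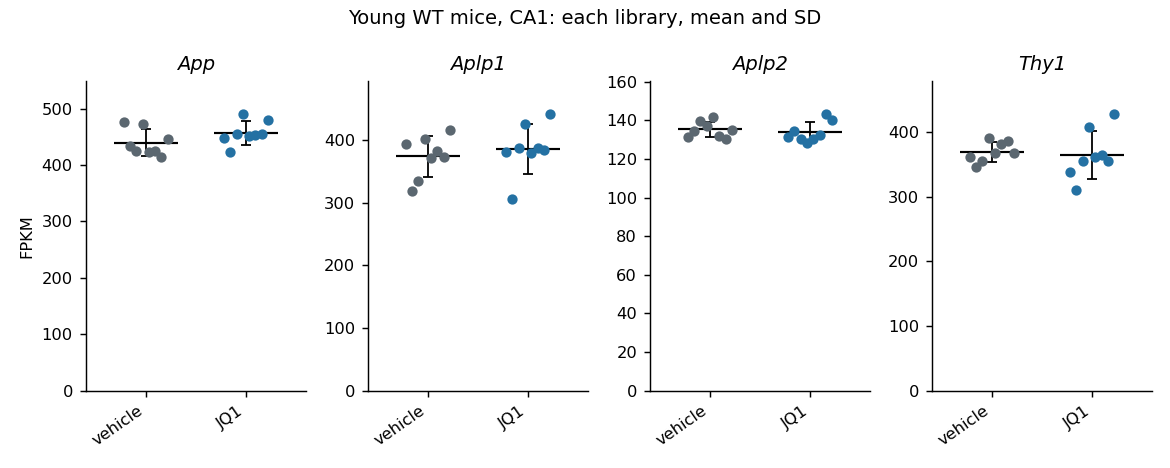
FPKM (y axes, from 0) of the 4 genes in 8 vehicle-treated and 8 JQ1-treated young WT mice, with mean and SD. The groups overlap in every gene, and 1 JQ1-treated mouse has the lowest Aplp1, at 306.4 FPKM.

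Levels were compared between genes on scales that divide by length. In all 16 young mice App stood above Aplp1, above Thy1 and above Aplp2, and Aplp2 was below both Aplp1 and Thy1. Aplp1 and Thy1 could not be placed in a fixed order, as Aplp1 was above Thy1 in 5 of 8 vehicle-treated and 7 of 8 JQ1-treated mice. Among the 40678 loci, the mean FPKM of vehicle-treated mice placed App at rank 110, Aplp1 at 135, Thy1 at 139 and Aplp2 at 559.

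In aged mice, the order of Thy1 and App turned with genotype. In CPM per kb of the principal transcript, App averaged 605.1 ± 22.3 in WT mice (SD, n = 4), where it was above the 551.9 ± 54.2 of Thy1 in 4 of 4 libraries. In vehicle-treated APP mice, Thy1 averaged 1180 ± 128.1 (SD, n = 6) and was above the 775.8 ± 56.8 of App in 6 of 6 libraries. Thy1 was likewise above App in 5 of 6 libraries of JQ1-treated APP mice, the exception being the library labelled replicate 4. The order depends on the length used, because App has 12996 exonic bases over all its transcripts but 3176 in the principal one, and per exonic kb Thy1 was above App in all 16 aged libraries.

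The count ratio of Thy1 to App does not depend on library scaling or on an assumed length. It was 0.43, 0.52, 0.51 and 0.54 in the WT mice and 0.75, 0.83 and 0.89 as lowest, median and highest in vehicle-treated APP mice. These ranges did not overlap. The 5 other libraries of JQ1-treated APP mice lay between 0.67 and 0.96, and the library labelled replicate 4 was at 0.46, inside the WT range.

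The ratio of Thy1 to Aplp1, a family member without a transgene, was 0.685 ± 0.051 over the 4 WT libraries and 1.48 ± 0.064 over the 6 APP libraries given vehicle. In the 5 other JQ1-treated APP mice it was 1.46 ± 0.180 (SD, n = 5), against 0.683 in the library labelled replicate 4.

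**Figure D5:**
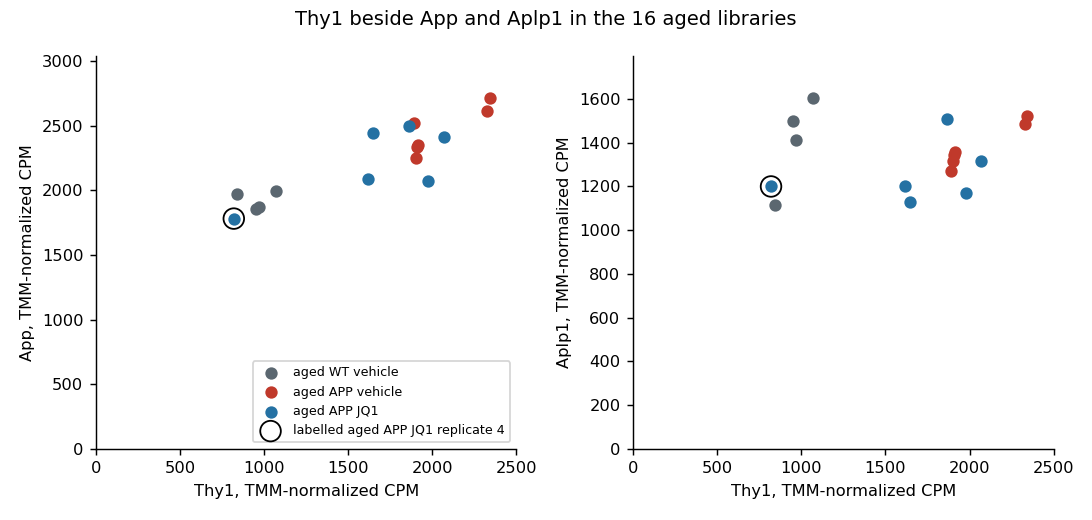
CPM of Thy1 (x axes) beside CPM of App (left) and of Aplp1 (right) in the 16 aged libraries, with all axes from 0 and groups by color. WT libraries lie at 840.6 to 1070 CPM of Thy1 and vehicle-treated APP libraries at 1890 to 2342, and the ringed library labelled aged APP JQ1 replicate 4 lies at 819.8.

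Within the family, App took a larger share in APP mice. In counts per kb of the principal transcript, App made up 45.3 ± 3.1% of the sum of App, Aplp1 and Aplp2 in the 4 WT mice and 52.0 ± 1.2% in the 6 APP mice given vehicle (mean ± SD). The lowest vehicle-treated APP mouse, at 50.9%, was above the highest WT mouse, at 49.9%. Aplp1 made up 44.7 ± 4.4% in WT mice and 39.6 ± 1.3% in vehicle-treated APP mice, and Aplp2 10.0 ± 1.3% and 8.4 ± 0.8%. The 5 other JQ1-treated APP mice averaged 52.2 ± 2.2% (SD, n = 5) for App, and the library labelled replicate 4 had 46.2%. On exonic length, the share of App was 21.4 ± 2.3% in WT and 26.2 ± 1.0% in vehicle-treated APP mice, with the same lack of overlap (at most 24.8% in WT and at least 25.3% in APP mice). In young mice, by FPKM, App made up 46.3 ± 1.5% (SD, n = 8) of the family after vehicle and 46.8 ± 1.0% (SD, n = 8) after JQ1.

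Whether the genes vary together between mice of the same group was asked with the deviations of log2 values from the group means. Of 16 pairs of genes and experiments computed, 12 are given, with p-values from 100000 permutations within groups. Adjustment was over all 16, except without the library labelled aged APP JQ1 replicate 4, where it was over the aged pairs only. In young WT mice, Aplp1 and Thy1 varied together (r = 0.82, rho = 0.81, n = 16, permutation p = 0.00025, adjusted p = 0.0040). App also varied with Aplp1 (r = 0.71, rho = 0.71, permutation p = 0.00367, adjusted p = 0.0147). Without the 2 mice farthest from the median of the first gene, r was 0.71 and 0.74 with adjusted permutation p = 0.0396 for both. There rho was 0.81 (adjusted permutation p = 0.0371) and 0.49 (adjusted permutation p = 0.233), so the relation of App and Aplp1 did not pass by rank. App and Thy1 gave r = 0.59 (permutation p = 0.0108, adjusted p = 0.0248) but rho = 0.40 (permutation p = 0.122, adjusted p = 0.163). Without the 2 mice farthest from the median of App, r was 0.75 (permutation p = 0.0099, adjusted p = 0.0396) and rho was 0.42 (permutation p = 0.169, adjusted p = 0.301).

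Aplp2 had lower correlations in young mice, with r of -0.07 with App, -0.06 with Aplp1 and 0.02 with Thy1, and adjusted permutation p of at least 0.893. Each pair shares its library, its depth and any difference in dissection, and the part of these in the correlations was not tested.

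In aged mice, App and Thy1 gave r = 0.74 (n = 16, permutation p = 0.0152, adjusted p = 0.0304) and rho = 0.55 (adjusted permutation p = 0.0706). Without the library labelled aged APP JQ1 replicate 4, r was 0.40 (rho = 0.41, n = 15, permutation p = 0.177, adjusted p = 0.202), so the relation rests on that library. Aplp2 and Thy1 were negatively related, with r = -0.63 in all 16 libraries (adjusted permutation p = 0.0134) and -0.64 in the 15 others (adjusted permutation p = 0.0632). Aplp1 and Thy1 went the other way, from r = 0.41 (adjusted permutation p = 0.210) to 0.70 (adjusted permutation p = 0.0554) once the library was left out. Aplp1 and Aplp2 gave r = -0.55 (rho = -0.52, permutation p = 0.0459, adjusted p = 0.0735), and -0.56 without the library (adjusted permutation p = 0.0837). The remaining pairs had r of 0.34 for App and Aplp1 (adjusted permutation p = 0.259) and -0.31 for App and Aplp2 (adjusted permutation p = 0.288), and 0.37 and -0.04 without it.

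Genes with patterns most like each member over the aged libraries were ranked by Pearson r of log2 CPM among 10413 genes, as a description in which group differences, depth and base composition are shared. Among the closest to Thy1 were Cst7 (0.96), a cystatin of activated microglia, and Man2b1 (0.96), a lysosomal mannosidase. Over the 16 young WT libraries these pairs gave -0.05 for Cst7 and 0.20 for Man2b1. Without the library labelled aged APP JQ1 replicate 4, the genes closest to Thy1 were C4b (0.95), Cebpa (0.95) and Cst7 (0.95), and the young libraries gave 0.29 for C4b and 0.79 for Cebpa.

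Among the genes closest to App over the 16 aged libraries were Srebf2 (0.91), a transcription factor of sterol synthesis, and Thy1 (0.89). Over the 15 libraries without the one labelled aged APP JQ1 replicate 4, Srebf2 (0.90) was at rank 1. In young mice Srebf2 gave 0.56 with App. The paralogs were far down the list of App, with Aplp1 at rank 2940 (0.20) and Aplp2 at rank 9794 (-0.49) of 10413.

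Aplp1 was closest to Sez6 (0.94), a neuronal surface protein, B4galnt1 (0.94), a ganglioside synthase, and Plppr2 (0.93). In young mice the r of Aplp1 was 0.77 with Sez6 and 0.87 with B4galnt1. Aplp2 was closest to Dusp3 (0.92), Dlc1 (0.90) and Tppp (0.89), which in young mice gave 0.25, 0.50 and 0.08. The third gene nearest to Aplp1 was not found under its name in the FPKM files.

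The nearest tested genes on each side of the members were read beside them. Thy1 is flanked by Nectin1, 235.9 kb away, and Usp2, 18.4 kb away, and these had log2 fold changes of 0.07 and -0.16 between vehicle-treated APP and WT mice (adjusted p = 0.907 and 0.635 from edgeR). App is flanked by Gabpa and Cyyr1, at -0.14 and -0.03 (adjusted p = 0.457 and 0.967 from edgeR). Aplp1 is flanked by Nfkbid and Kirrel2, at 0.04 and -0.32 (adjusted p = 0.947 and 0.720 from edgeR). Of the genes beside Aplp2, Prdm10 was at -0.25 (adjusted p = 0.527 from edgeR). The other, St14, a membrane serine protease, was called at 3.00 (adjusted p = 0.00993 from edgeR), from 0.832 CPM in WT to 6.71 CPM in vehicle-treated APP mice. Neither neighbor of Thy1 was called, and St14 was the only called neighbor of the 8 in this comparison, beside 2.57% of all genes.

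The enzymes that cut App were counted as a list of 11 secretase genes, all of which were tested. Between vehicle-treated APP and WT mice edgeR and DESeq2 called 0 of them, beside 2.57% of all genes by edgeR. An unadjusted p under 0.05 in edgeR was found for 2 of 11, beside 14.4% of all genes, and the median log2 fold change was 0.02 beside 0.01 over all genes tested. Adam17, an α-secretase candidate that sheds many surface proteins, was at 0.35 (adjusted p = 0.146 from edgeR), Bace2, a homolog of β-secretase, at 0.34 (adjusted p = 0.696 from edgeR) and Aph1b, a γ-secretase subunit, at -0.33 (adjusted p = 0.176 from edgeR). Between JQ1 and vehicle in APP mice edgeR called none in either direction, with 1 of 11 at an unadjusted p under 0.05 beside 17.6% of all genes, and the median was near 0, as over all genes. Adam10, the main α-secretase of neurons, had the lowest adjusted p of the list there, at 0.0737 from edgeR with a log2 fold change of 0.27. It was the 1 gene of the list called by DESeq2, which called 749 genes in this comparison, against 184 by edgeR. The adjusted p of Adam10 was 0.168 from edgeR, at 0.25, without the library labelled aged APP JQ1 replicate 4. Between JQ1-treated APP and WT mice edgeR and DESeq2 called 0 of them, and 2 had an unadjusted p under 0.05 in edgeR, beside 14.1% of all genes (3 of 11 without that library).

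Among 22 genes of adaptors and sorting receptors that bind App, 21 were tested. Between vehicle-treated APP and WT mice edgeR and DESeq2 called 0 of them, and 6 of 21 had an unadjusted p under 0.05 in edgeR, beside 14.4% of all genes. The largest differences were those of Shc1 (0.38), Lrp1 (0.37), an endocytic receptor of App, and Apba3 (0.32), with adjusted p of at least 0.262 from edgeR, and the median of the list was 0.02 beside 0.01 over all genes. JQ1 against vehicle in APP mice gave 1 call of 21 in edgeR, beside 1.08% of all genes. An unadjusted p under 0.05 was found for 6 of 21, beside 17.6% of all genes. The called gene was Apba3, an adaptor of the X11 family that binds the cytoplasmic tail of App, which was lower after JQ1. It averaged 16.2 ± 2.26 CPM (SD, n = 6) after JQ1 and 23.2 ± 3.02 CPM (SD, n = 6) after vehicle, with a log2 fold change of -0.52 (adjusted p = 0.0414 from edgeR). Without the library labelled aged APP JQ1 replicate 4 it stayed at -0.52 but was not called (adjusted p = 0.0893 from edgeR). Against WT mice, JQ1-treated APP mice gave 0 calls in edgeR with all libraries, where 2 of 21 had an unadjusted p under 0.05, beside 14.1% of all genes. DESeq2, which called 790 genes in this comparison, called Apba2, another X11 adaptor. Without that library Apba2 was called at -0.33 (adjusted p = 0.0392 from edgeR), as 1 of 21 beside 3.84% of all genes.

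Other proteins held on the neuronal surface by a GPI anchor, as Thy1 is, were counted too. Of 14 such genes, all tested, edgeR and DESeq2 called 0 between vehicle-treated APP and WT mice, 3 had an unadjusted p under 0.05 in edgeR, beside 14.4% of all genes, and their median log2 fold change was -0.13 beside 0.01 over all genes. The largest differences were those of Cntn1 (-0.34), Cntn4 (-0.33) and Negr1 (-0.32), adhesion proteins of axons, with adjusted p of at least 0.201 from edgeR. For JQ1 in aged APP mice 0 were called by edgeR or DESeq2, with a median of 0.15 and 7 of 14 at an unadjusted p under 0.05, beside 17.6% of all genes. Leaving out the library labelled aged APP JQ1 replicate 4 gave a median of 0.12, and 5 of 14 had an unadjusted p under 0.05, beside 13.6% of all genes. Between JQ1-treated APP and WT mice edgeR and DESeq2 called 0, with 1 of 14 at an unadjusted p under 0.05 in edgeR, beside 14.1% of all genes. In young WT mice limma called 0 genes of the 3 lists, and 1 of 12, 2 of 19 and 1 of 13 loci had an unadjusted p under 0.05, beside 4.65% of all loci.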

How the data were processed

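Gene expression in the CA1 region was measured by RNA-seq on a HiSeq2000 in aged APP and WT mice (16 libraries with files) and in young WT mice (16 libraries), which are 32 of the 33 samples labelled. For the aged mice the authors used STAR on mm10 with up to 2 mismatches and HTSeq, and the deposited values are raw whole-number counts per gene. For the young mice the deposited values are FPKM, which the authors made with Cufflinks and Cuffdiff. The submitters' processing notes also name CASAVA 1.8.2 and TopHat, and neither a strand setting, an annotation release, a batch nor a date is given in the sources used here. No file held columns of other samples. Rows of the count files that name no gene (reads outside exons, ambiguous or not unique) held 40.6% to 52.9% of the rows' total per library and stayed out of library sizes and tests.

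Groups were taken from the labels. Counts were normalized with TMM and tested with edgeR 4.0.16 (quasi-likelihood, robust, filterByExpr, 16962 genes, 1 fit of the 3 aged groups), and FPKM with limma 3.58.1 (trend, robust) on log2(FPKM + 0.1) over the 18420 loci with at least 0.5 FPKM in at least 8 libraries, both with Benjamini-Hochberg adjustment over all features and a threshold of 0.05. Fold changes in young mice are on that log2 scale. Exact permutation tests of single genes were two-sided and used the mean log2 values. Confidence intervals are at 95%. The software was R 4.3.3 with DESeq2 1.42.0, and Python 3.11.15 with scipy 1.17.1, numpy 2.4.6, matplotlib 3.10.9 and pandas 2.3.3. Fits were tested on simulated data. The labels number the samples but do not say that each is a separate mouse, so p-values measure the spread between these samples, which may be technical.

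Coordinates, exonic lengths and transcripts were read from the mouse GENCODE annotation (release 21, same build as mm10), which held 36602 of the 38355 gene identifiers. Depth was 14605459 to 25339482 counts per aged library. Genes named beside the members were list members past the threshold and up to 3 others with the largest change, the nearest tested gene on each side, and the 3 genes most like each member among those with a mean of at least 10 CPM. Some genes that this rule gives are not reported here. Trem2, Gfap, Aldh1l1, Slc1a2, Rbfox3, Slc17a7, Snap25, Syt1, Camk2a, Map2, Tubb3 and Ttr were named after their values were seen. The members and lists were chosen with earlier results of these data known. Alternatives were DESeq2, RLE size factors, no filter, only the groups compared, the replicate number as a block, a correction for GC content and length by splines of 5 degrees of freedom, other pseudocounts, median-ratio scaling and leaving out each library. The transcript length for family shares, and leaving out the library labelled aged APP JQ1 replicate 4 from the correlations and lists, were added after the data were seen.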

Additional observations from a re-analysis of the deposited data

Results flagged for a closer look

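A value was singled out where the gap between the highest or lowest library of a group and its nearest neighbor was too large a share of the range of that group by the test of Dixon. Of 50 groups of values tested, 6 gave such a library, and chance alone gives about 1 in 20.

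The library labelled aged APP JQ1 replicate 4 had the lowest Thy1 of its group, at 819.8 CPM. Aged WT vehicle replicate 1 had the highest Aplp2 of its group, at 539.1 CPM. Aged APP vehicle replicate 2 had the lowest share of Aplp1 in the family of its group, 60.4% on the scale of counts per exonic kb. Young WT JQ1 replicate 2 had the lowest Aplp1 of its group, at 306.4 FPKM, with the lowest share of Aplp1 in the family, 35.5% of FPKM, and the highest share of App, 49.0%.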

How the results depend on the processing

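Thy1 was called between vehicle-treated APP and WT mice without any single aged library (16 of 16 omissions, log2 fold changes of 1.03 to 1.15) and under every other alternative run. Apart from leaving out libraries, 96 of 104 fold changes of the members kept their direction and side of the threshold, and 12 of 26 counts of called genes stayed within 1.5 times. The causes of the changes below were not tested. App passed the threshold there with only the compared groups in the fit, at 0.36, and by DESeq2, at 0.34. Leaving out 1 library gave App 0.33 to 0.37 (called only when the library labelled aged APP JQ1 replicate 4 was left out) and Aplp1 -0.13 to 0.042, above 0 only without WT replicate 5.

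The replicate number was tried as a block although samples of the same number did not deviate together. The correlation of their deviations was -0.47 to 0.34 over 14 pairs of aged and -0.07 to 0.10 over 8 pairs of young samples. With the replicate block Aplp1 was at 0.019 between vehicle-treated APP and WT mice, and Thy1 was not called between JQ1-treated APP and WT mice, at 0.75 (0.69 with the block and the GC content and length correction, and 0.79 with the compared groups alone). Leaving out 1 library gave Thy1 0.72 to 0.93 against WT after JQ1, without a call when APP JQ1 replicate 1, 2 or 6 or any WT library was left out. Aplp1 between JQ1 and vehicle was at 0.10 with the GC content and length correction and 0.094 with the block added. In young mice Thy1 ran from -0.056 to 0.0094, above 0 without JQ1 replicate 2.

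Over all genes, 184 were called between JQ1 and vehicle in aged APP mice, 87 with the block, 42 with the GC content and length correction, 33 with both, 749 by DESeq2 and 65 to 446 without 1 library. The count moved by over 1.5 times without JQ1 replicate 2, 3 or 4, vehicle replicate 2 to 6, or WT replicate 1, 3 or 4. Between vehicle-treated APP and WT mice 436 were called, 679 with the compared groups alone, 35 with the block, 29 with block and correction, 792 by DESeq2 and 154 to 601 without 1 library, fewest without WT libraries. Between JQ1-treated APP and WT mice 349 were called, 227 with the compared groups alone, 21 with the block, 36 with block and correction, 790 by DESeq2 and 11 to 651 without 1 library, moved over 1.5 times by JQ1 replicate 1, 2, 4 or 6 and each WT library. In young mice 1 locus was called, 0 with the block or with no filter, and 0 to 2 without 1 library, 2 without vehicle replicate 6 and 1 only without JQ1 replicate 3.

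The share of App in the family was 21.4%, 26.2% and 25.6% per exonic kb in WT, vehicle-treated and JQ1-treated APP mice, 50.5%, 57.3% and 56.2% in counts and 45.3%, 52.0% and 51.2% per kb of the principal transcript, the last chosen after seeing the data. Without the 2 samples farthest from the median of the first gene, aged r were 0.41 for App and Thy1 and -0.66 for Aplp2 and Thy1, with adjusted permutation p above 0.05. Without the library labelled aged APP JQ1 replicate 4 they were 0.40 and -0.64. In young mice, leaving out the 2 farthest samples gave 0.0061 for App and Aplp2 and -0.42 for Aplp2 and Thy1, both of opposite sign. Depth did not limit the 4 genes in aged mice, and 4 WT libraries and 1 library unlike the rest of its group limit the comparisons more.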
